A study of Bos taurus with 12 samples.

Results

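Lumican, 3 fibrillar collagen genes and 6 further genes of the mammary stroma were followed in biopsies of the bovine mammary gland (MG). These 10 genes were LUM, COL1A1, COL1A2, COL3A1, DCN, BGN, FMOD, POSTN, SPARC and FN1. They were chosen by gene symbol, with the differences between the diets already known, as named genes of the stromal matrix. All 10 were on the array, among 12639 named genes, and together they had 58 of its 43653 probes. Levels came from one-color bovine arrays of 12 multiparous Holstein cows, with the RNA of 1 cow on each array. The cows entered the trial at 24 ± 3 days in milk. The CONT cows (n = 6) ate a lactation diet ad libitum, and the REST cows (n = 6) were fed for 4 days a diet in which barley straw made up 48% of dry matter. On day 3, every cow of both groups was given 50 µg of lipopolysaccharide (LPS), the endotoxin of Gram-negative bacteria, into a healthy rear gland of the udder. The MG was sampled 24 h after the LPS challenge, so that all 12 samples were inflamed glands and no unchallenged gland was analysed here. Cows carry the number of their order in the series (CONT 1 to CONT 6, REST 1 to REST 6), and these numbers do not pair the groups.

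The stroma of the MG is the connective tissue around the ducts and alveoli, and most of its matrix is made by fibroblasts. Collagen I is built of chains from COL1A1 and COL1A2, and collagen III of chains from COL3A1. These chains assemble outside the cell into fibrils. Lumican (LUM), decorin (DCN), biglycan (BGN) and fibromodulin (FMOD) are small leucine-rich proteoglycans; decorin, lumican and fibromodulin bind collagen fibrils and influence their diameter and spacing. Fibronectin (FN1) is an adhesive glycoprotein on which other matrix proteins are laid down. Periostin (POSTN) and osteonectin (SPARC) are matricellular proteins, which act on cells more than they bear load. In the RefSeq annotation of the assembly ARS-UCD2.0, EPYC, KERA, LUM and DCN are neighbouring coding genes.

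Levels are given as the log2 processed signal minus the 75th percentile of the same array, so that a level of 0 is the 75th percentile and a difference of 1 is a doubling. The probe with the highest mean over the 12 arrays stands for a gene unless stated otherwise. Signal strength limited few of these measurements: 50 of the 58 probes passed the scanner's test of being well above background on each of the 12 arrays, and none of their spots was saturated. The 12 arrays were on 3 slides of 4. Slide 1 held CONT 2, CONT 4, CONT 5 and REST 1, slide 2 held CONT 1, REST 2, REST 4 and REST 5, and slide 3 held CONT 3, CONT 6, REST 3 and REST 6. Negative control spots were brighter on slide 1 (37.7 to 58.2) than on the other slides (17.4 to 20.0). CONT 6 stood apart in its endothelial markers, with a mean of -1.76 against -0.05 to 0.20 in the other CONT cows. In bulk tissue, fewer cells of a type and less RNA per cell cannot be told apart.

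LUM was lower in REST than in CONT by 0.84 on average (log2, SE 0.24), a 1.79-fold lower level. In CONT the level ran from 1.26 in CONT 2 through a median of 1.64 to 2.10 in CONT 6, with a mean of 1.62 ± 0.31 (SD, n = 6). In REST it ran from 0.20 in REST 6 through a median of 0.74 to 1.61 in REST 1, with a mean of 0.78 ± 0.50 (SD, n = 6). Thus, 5 of the 6 REST cows lay below every CONT cow, and REST 1 lay inside the CONT range. A further probe of LUM was lower in REST by 0.55 (SE 0.25), and its within-diet correlation with the first was 0.83. Without CONT 6, the cow that stood apart, the difference of the brighter probe was -0.74. Because LUM was chosen with this contrast known, these values are a description and were given no test.

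The collagen genes were lower in REST on average, but with a wider spread among REST cows than among CONT cows. COL1A1 had levels of 2.11 to 2.99 in CONT (median 2.45) and 0.91 to 2.75 in REST (median 1.58), and the means were 2.56 ± 0.34 and 1.85 ± 0.73 (SD, n = 6 each). COL1A2 had levels of 3.16 to 3.69 in CONT (median 3.47) and 1.71 to 3.61 in REST (median 2.79). COL3A1 had levels of 3.61 to 4.31 in CONT (median 4.12) and 2.56 to 4.52 in REST (median 3.30). For each of these genes 4 of 6 REST cows, REST 2, REST 4, REST 5 and REST 6, lay below every CONT cow, while REST 1 and REST 3 lay within or above the CONT range. The mean differences were -0.72 for COL1A1 (SE 0.31), -0.65 for COL1A2 (SE 0.27) and -0.60 for COL3A1 (SE 0.30).

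FN1 had the largest mean difference of the 10 genes, -0.94 (SE 0.35), a 1.92-fold lower level in REST. Its levels ran from 2.27 to 3.17 in CONT (median 2.85) and from 0.31 in REST 2 to 2.85 in REST 1 (median 1.89). The same 4 REST cows that were low for the collagens were below every CONT cow. Without REST 2 the mean difference of FN1 was -0.63, and without REST 1 it was -1.14. All 13 probes of FN1 were lower in REST, by 0.24 to 1.01, but only 8 of them were well above background on all 12 arrays.

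The proteoglycans other than LUM differed less between the diets. DCN was lower in REST by 0.38 (SE 0.21), with levels of 4.19 to 4.62 in CONT and 3.32 to 4.48 in REST, and the difference was -0.24 without REST 2. For FMOD, which has 1 probe, the difference was -0.27 (SE 0.28) and the ranges were 0.96 to 2.48 and 0.80 to 2.22. Leaving out single cows moved it from -0.42 (without REST 3) to -0.11 (without CONT 6). For BGN it was -0.09 (SE 0.26), with a CONT range of 2.90 to 3.69 that lay inside the REST range of 2.58 to 4.06. BGN was higher in REST by 0.03 both with slide as a block and without REST 2.

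The matricellular genes showed no difference beyond their spread. SPARC levels were 5.01 to 5.45 in CONT and 4.59 to 5.55 in REST, with a difference of -0.15 (SE 0.17) that was -0.04 with slide as a block, -0.05 without REST 4 and -0.24 without REST 3. POSTN varied more than any other member within a diet, from -2.68 in CONT 6 to 0.55 in CONT 2 and from -2.60 in REST 2 to 0.15 in REST 5. Its difference was 0.01 (SE 0.60), and it changed sign when CONT 6 was left out (-0.34).

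**Figure D1:**
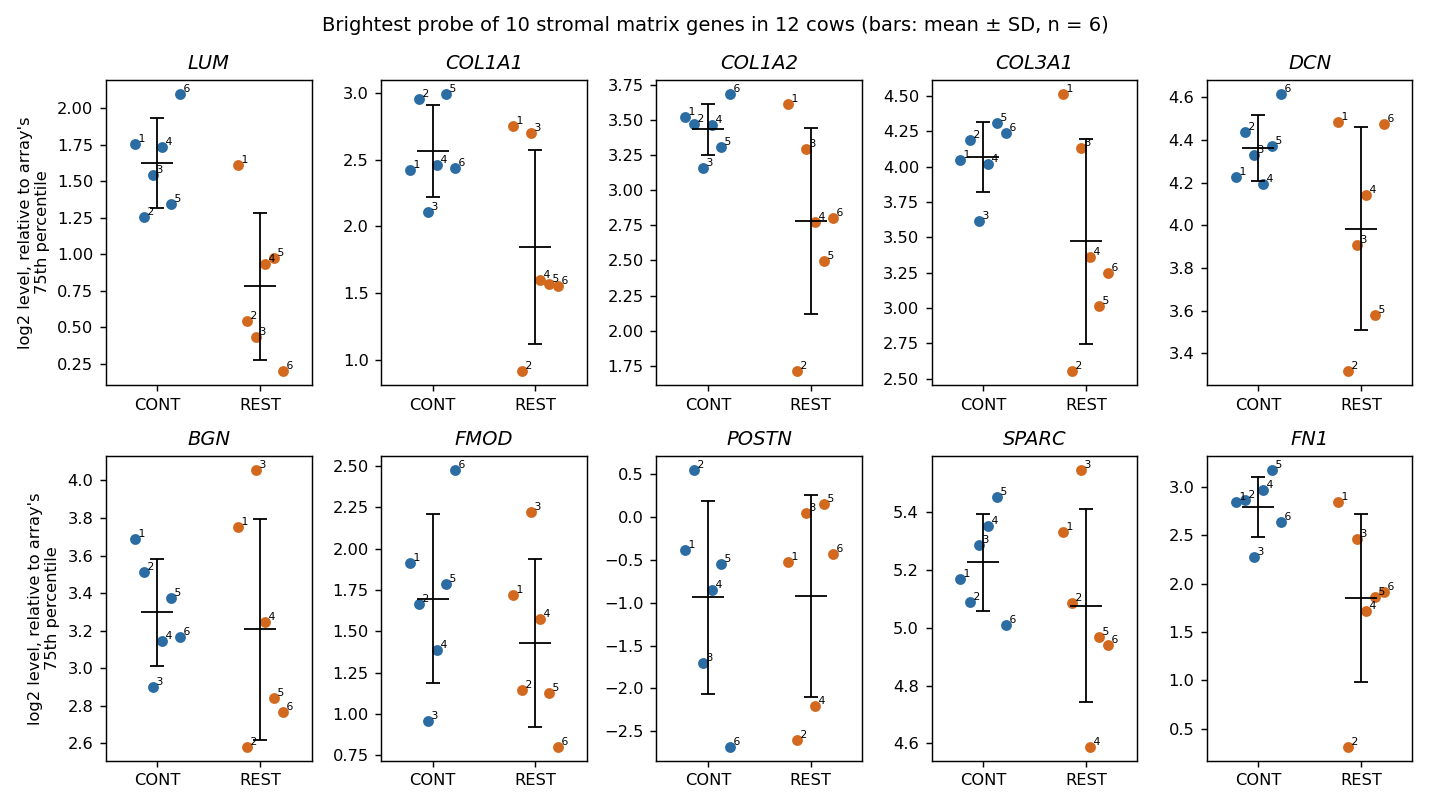
Level of the brightest probe of each of the 10 genes (vertical axis, log2 relative to the array's 75th percentile; each panel has its own scale) in CONT and REST cows. Each point is 1 cow with its number, and bars are the mean ± SD (n = 6). For LUM, 5 REST points lie below all CONT points, and for the collagens and FN1, REST 1 and REST 3 lie near the CONT cows while REST 2 is the lowest.

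Over the 10 genes, 9 had a lower mean in REST, and the median difference was -0.49, against -0.03 over all named genes. Of the 58 probes, 50 were lower and 8 higher in REST. No probe of the array passed an adjusted p of 0.05 (limma with Benjamini-Hochberg adjustment, 0% of 43653 probes), while 1143 had an unadjusted p under 0.05. Among the members, 15 probes lay under an unadjusted p of 0.05 with a lower mean in REST, where 0.875% of all probes were so, and 1 was higher, where 1.74% of all probes were so. Groups overlapped for all 58 member probes, and 0.128% of all probes had groups that did not overlap. The members were chosen with this contrast known, so nothing is read from these counts.

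Slides and diets were not balanced, and the differences were not alike on every slide. With slide as a block, the difference of LUM was -0.83 (SE 0.28), close to the value without it. The block gave smaller differences for COL1A1 (-0.39, SE 0.28), COL3A1 (-0.31, SE 0.28) and FN1 (-0.62, SE 0.34), each at least 1.5 times smaller than without it. The same block gave -0.45 for COL1A2 (SE 0.27) and -0.23 for DCN (SE 0.21). Within slide 2, which held 1 CONT and 3 REST cows, the difference was -0.94 for LUM, -1.06 for COL1A1, -1.19 for COL1A2, -1.07 for COL3A1 and -1.55 for FN1. Within slide 3, with 2 cows of each diet, it was -1.51 for LUM but -0.15 for COL1A1, -0.38 for COL1A2, -0.24 for COL3A1 and -0.26 for FN1. Within slide 1, which held 1 REST and 3 CONT cows, it was 0.17 for LUM, -0.05 for COL1A1, 0.20 for COL1A2, 0.34 for COL3A1 and -0.16 for FN1. Hence LUM was lower in REST on slides 2 and 3 and not on slide 1. A large difference of the collagens and FN1 was seen on slide 2, and a smaller one on slide 3.

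Probes of 1 gene did not always follow each other. Of the 48 probes that were not the brightest of their gene, 41 correlated positively with the brightest one after the diet means were removed, and 7, in 5 genes, correlated negatively. These 7 were 1 probe each of COL1A1, COL1A2 and COL3A1, and a pair each for DCN and BGN, singled out after their values were seen. For DCN the pair came from 9 probes, but BGN has only 3. Both other probes of BGN thus went against its brightest one (r = -0.55 and -0.21), which alone stands for BGN in the correlations below. The lowest within-diet r was -0.70, for the DCN probe A_73_P040326, which was higher in REST by 0.95 (SE 0.38) where the brightest DCN probe was lower by 0.38. The level of this probe ran from -0.20 to 1.07 in CONT and from -0.22 in REST 6 to 2.50 in REST 2, the cow with the lowest brightest-probe level of DCN. Between each other, the 7 probes had r from -0.02 to 0.91 (median 0.74 over 21 pairs), although they were made for different genes. The direction for DCN therefore depended on the probe, and with all its probes averaged, the difference was -0.10.

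**Figure D2:**
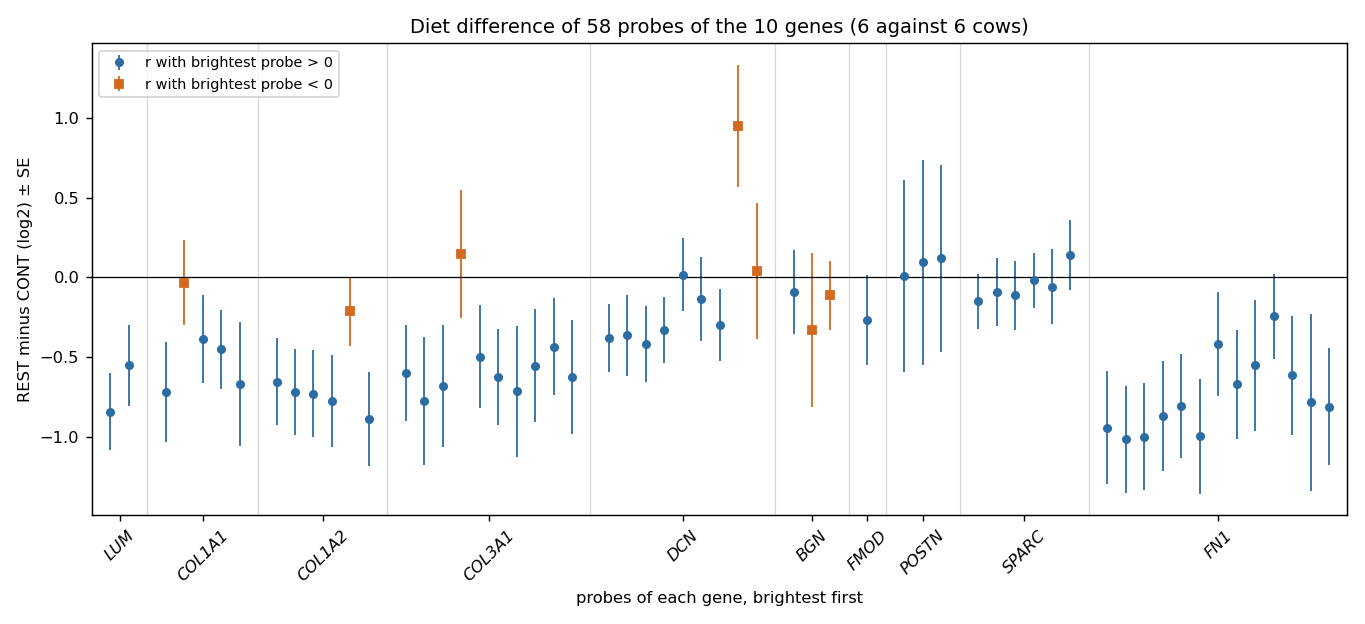
Difference between the diets (vertical axis, REST minus CONT, log2) for each of the 58 probes, ordered by gene and then by brightness; bars are the SE of the fit. Circles mark probes that correlate positively with the brightest probe of their gene within diet and squares the 7 that correlate negatively. Circles of LUM, the collagens and FN1 lie below 0, and the highest square is a DCN probe at 0.95.

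The correlation between genes over cows within a diet does not rest on the contrast by which the genes were chosen. Here each value had its diet mean subtracted, and cows were shuffled within their diet (two-sided permutation test, 100000 resamples, Benjamini-Hochberg over the 45 pairs of members). Of the 45 pairs, 9 passed an adjusted p of 0.05 by Pearson's r. BGN with FMOD was among them (r = 0.73, adjusted permutation p = 0.047). By Spearman's rho it also passed, as did COL3A1 with FMOD (adjusted permutation p = 0.041 for each). The other 8 were among the 10 pairs of COL1A1, COL1A2, COL3A1, FN1 and BGN, with r from 0.75 to 0.95. These genes were grouped after their values were seen, and BGN is given by a probe that its other probes did not follow. Within the group rho ran from 0.62 to 0.94, and 6 of the 10 pairs passed by it. Without the 2 cows farthest from the median, r in the group ran from 0.56 (COL1A2 with FN1) to 0.90. The shuffling held apart neither slides nor the brightness of the arrays, which is described below. With slide and diet both removed, a value chosen after seeing the data and given no test, r over the 10 pairs ran from 0.73 to 0.95. The closest pair was COL1A1 and COL3A1, with r = 0.95 (permutation p = 0.00032, adjusted p = 0.0081) and rho = 0.94 (permutation p = 0.00066, adjusted p = 0.016). COL1A1 and FN1 had r = 0.89 (permutation p = 0.00036, adjusted p = 0.0081) and rho = 0.87 (permutation p = 0.00071, adjusted p = 0.016). Without the 2 cows farthest from the median of COL1A1, REST 1 and REST 3, these r values were 0.90 and 0.84.

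LUM did not share this pattern to a degree that could be shown. Its within-diet r with the 9 other members ran from -0.25 for POSTN to 0.44 for COL1A2, with a median of 0.22, and none passed a permutation test (lowest p = 0.27, adjusted p over the 9 relations 0.73 to 0.85). Spearman's rho ran from -0.34 to 0.34 (adjusted permutation p = 0.83 for each). Without REST 1 and REST 6, the 2 cows farthest from the median, the r values ran from -0.58 to 0.24. With slide and diet both removed they ran from -0.35 to 0.59. The cows lowest for LUM were REST 6, REST 3 and REST 2, while REST 3 was among the highest REST cows for COL1A1, COL3A1, BGN and SPARC. The difference between the r values of LUM and those of the collagens was not itself tested.

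**Figure D3:**
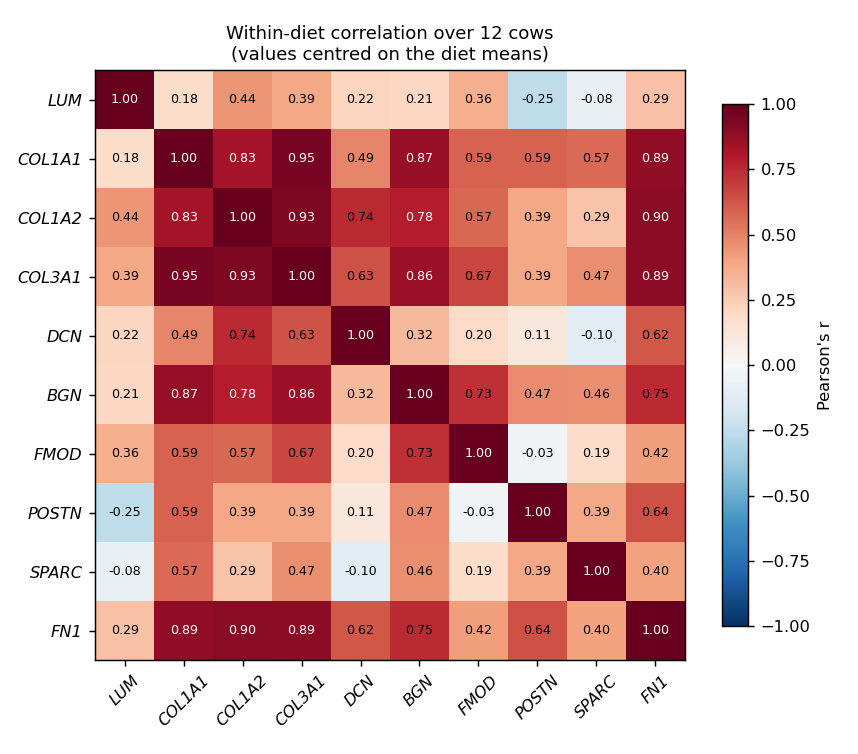
Pearson's r between the brightest probes of the 10 genes over 12 cows, after the mean of each diet was subtracted (color scale from -1 to 1, value in each cell). COL1A1, COL1A2, COL3A1, BGN and FN1 have r of 0.75 to 0.95 with each other, and LUM has r of -0.25 to 0.44 with the other genes.

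Array brightness moved with the collagens. The 75th percentile intensity was 577 to 1184 on the CONT arrays (median 837) and 387 to 1082 on the REST arrays (median 653), with REST 2 the dimmest array of all. Within diets, the log2 of this intensity had r = 0.87 with COL1A2 (permutation p = 0.00055, adjusted p over the 10 genes 0.0055), and rho = 0.83 (permutation p = 0.0038, adjusted p = 0.038). For COL3A1 it had r = 0.83 (permutation p = 0.0025, adjusted p = 0.013) and rho = 0.74 (permutation p = 0.015, adjusted p = 0.067). Without REST 1 and REST 2 the r values of these genes were 0.71 and 0.60. By Pearson's r, COL1A1, COL1A2, COL3A1, DCN and FN1 passed an adjusted p of 0.05, and by Spearman's rho COL1A2 alone did. For COL1A1 and FN1, r was 0.72 and 0.76, and without REST 1 and REST 2 it was 0.41 for both, so that these relations rested largely on those cows. For LUM it had r = 0.33 (permutation p = 0.37, adjusted p = 0.41) and rho = 0.04 (permutation p = 0.92, adjusted p = 0.93), and -0.18 without these 2 arrays. With slide and diet both removed, r with the array intensity was 0.81 for COL1A2, 0.72 for COL3A1, 0.53 for COL1A1, 0.63 for FN1 and 0.49 for LUM, values given no test. For the mean of the 7 probes that went against their genes, r was -0.76, given as a description. Quantile normalization left the r of LUM at 0.35 and that of the mean of COL1A1, COL1A2, COL3A1 and FN1 at 0.82. The part of array brightness in the diet differences was not tested. Nor was its part in the within-diet r values between genes, or between gene lists and COL1A1.

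**Figure D4:**
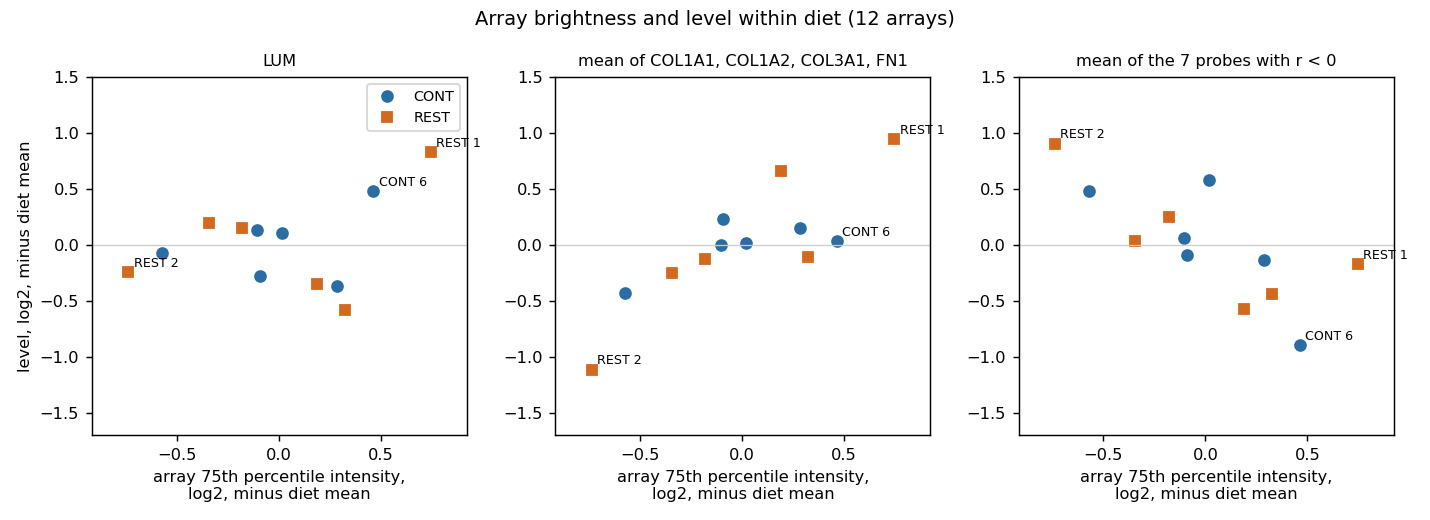
Level (vertical axis, log2, diet mean subtracted) of LUM, of the mean of COL1A1, COL1A2, COL3A1 and FN1, and of the mean of the 7 probes with a negative r, against the array's 75th percentile intensity (horizontal axis, log2, diet mean subtracted). Circles are CONT and squares REST arrays. The middle panel rises from REST 2 to REST 1 (r = 0.82), the right panel falls (r = -0.76), and LUM has r = 0.33.

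Genes with the pattern most like LUM were sought among 8990 other genes measured well above background in every cow. The 8 with the highest within-diet r were TEFM (r = 0.82), DEDD (0.82), NFYA (0.82), VPS45 (0.79), NAA50 (0.78), LPAR1 (0.78), CLNS1A (0.77) and GPN2 (0.76), over 12 cows. None of them was a matrix gene of the lists below. For the mean of the 10 members, the 8 closest were PA2G4 (r = 0.93), NT5M (0.93), TRMT6 (0.92), SMYD3 (0.92), TGFB3 (0.92), PSTK (0.90), C4BPA (0.90) and SMN2 (0.90). Of these 8, TGFB3 alone was a gene of the lists below. The r values for LUM and for the mean are the highest of a search and were given no test.

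The other genes of the matrix were taken from 7 lists, of which 91 of 112 genes were on the array. In the diet contrast 66 of them were lower and 25 higher in REST, with a median of -0.12, and no gene passed an adjusted p of 0.05 (limma, adjusted over all 43653 probes; lowest adjusted p = 1.00). At an unadjusted p under 0.05, 4 were lower, where 1.01% of the brightest probes of all named genes were so, and 2 were higher, where 1.63% were so. The 4 were KERA, ASPN, COL8A1 and MRC2, and the 2 were CHAD and ITGB3. Without CONT 1, REST 2 or REST 4, 2 of the 91 genes lay under this p. With slide as a block, 49 of the 91 were lower.

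Among the 10 other small leucine-rich proteoglycans, 7 were lower in REST and 3 higher, with a median of -0.11 that ran from -0.34 without CONT 6 to -0.01 without REST 6. KERA (keratocan), a close relative of lumican and its neighbour in the genome, had a difference of -0.82 (SE 0.25; unadjusted p under 0.05, limma adjusted p = 1.00). Its levels were -3.22 to -2.25 in CONT and -4.32 to -2.82 in REST, and 5 of 6 REST cows lay below every CONT cow. The difference of KERA was -0.95 with slide as a block, and within slides 1, 2 and 3 it was -0.59, -0.63 and -1.46. ASPN (asporin), which binds collagen, had a difference of -0.63 (SE 0.22, limma adjusted p = 1.00), with 4 of 6 REST cows below every CONT cow. Within slides 1, 2 and 3 the difference of ASPN was -0.17, -0.34 and -1.12. CHAD (chondroadherin), a matrix protein that binds cells, was higher in REST by 0.48 (SE 0.20, limma adjusted p = 1.00). Its differences within slides 1, 2 and 3 were -0.002, 1.13 and 0.68. None of these passed the adjusted test.

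Some of these proteoglycans were set beside LUM within diets, as 6 relations. OMD, OGN, ECM2 and EPYC were named after their values were seen, and the adjustment covers these 6 relations alone. The p-values of this paragraph are therefore a description. OMD (osteomodulin) had r = 0.73 with LUM (permutation p = 0.013, adjusted p = 0.077) and rho = 0.75 (permutation p = 0.015, adjusted p = 0.078), but was well above background on only 2 of 12 arrays. For ASPN, r was 0.65 (permutation p = 0.028, adjusted p = 0.085) and rho was 0.69 (permutation p = 0.026, adjusted p = 0.078). Without REST 1 and REST 6, these r values were 0.68 and 0.46. KERA had r = 0.30 (permutation p = 0.41, adjusted p = 0.73) and rho = 0.41 (permutation p = 0.21, adjusted p = 0.43). For OGN, ECM2 and EPYC, r was 0.10, 0.06 and -0.23, with adjusted permutation p of 0.90, 0.90 and 0.73. None of the 6 passed the adjusted threshold.

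Of the 6 other interstitial collagens measured, of 11 listed, 5 were lower in REST, with a median of -0.30. COL8A1, a short-chain collagen, had a difference of -1.32 (SE 0.59, limma adjusted p = 1.00), with CONT levels of -3.38 to 0.16 and REST levels of -3.53 to -1.88, so that 2 of 6 REST cows lay below every CONT cow. COL8A2 had the next largest difference, -0.37 (SE 0.37), which was -0.13 without CONT 5. Its dimmer probe was higher in REST by 0.49 (SE 0.44). Of the 23 matricellular, elastic and adhesive genes, 20 were lower in REST, with a median of -0.28, and none had an unadjusted p under 0.05. The largest differences there were those of THBS1 (-0.62, SE 0.80), a thrombospondin, and of ELN (-0.55, SE 0.32), which encodes elastin. Single cows decided the first of them: THBS1 ran from -1.05 without REST 4 to -0.06 without CONT 5, and ELN was -0.35 without CONT 5. With slide as a block the medians of both lists were nearer to 0, at -0.09 and -0.16. Without CONT 5 they were -0.13 and -0.18.

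The genes that process collagen differed little between the diets. Of 19 enzymes and chaperones of collagen synthesis and cross-linking, 13 were lower and 6 higher in REST, with a median of -0.06 that became 0.07 with slide as a block. LOXL3 (0.31, SE 0.29) and LOXL4 (0.42, SE 0.50), lysyl oxidases that cross-link collagen, had the largest differences. LOXL3 was 0.54 without CONT 5 and 0.16 without REST 3, and LOXL4 was 0.71 without CONT 5 and 0.13 without CONT 4. Within diets, though, the mean of this list followed COL1A1, with r = 0.87 (permutation p = 0.0040, adjusted p over 26 relations 0.034) and rho = 0.79 (permutation p = 0.013, adjusted p = 0.16), and r = 0.70 without REST 1 and REST 3. With slide and diet both removed this r was 0.80. Its r with LUM was 0.17 (permutation p = 0.65, adjusted p = 0.92), and rho was -0.03 (permutation p = 0.94, adjusted p = 0.97). The other interstitial collagens (r = 0.73) and the TGF-β genes below (r = 0.61) also passed with COL1A1 by r (adjusted permutation p = 0.032 for each). So did the fibroblast markers below. By rho none of the 26 relations passed (lowest adjusted permutation p = 0.11).

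Of 11 TGF-β ligands, receptors and mediators, which drive matrix production in many tissues, 7 were lower in REST, with a median of -0.03. TGFB3, a ligand, had the largest difference (-0.55, SE 0.28), or -0.35 without REST 2. ENG, a co-receptor of endothelium, had 0.25 (SE 0.32), which turned to -0.06 without CONT 6. Of 13 matrix receptors, 9 were lower, with a median of -0.12. MRC2, a receptor that takes up collagen, had a difference of -0.61 (SE 0.26, limma adjusted p = 1.00), and ITGB3, an integrin chain that binds fibronectin, had 0.42 (SE 0.18, limma adjusted p = 1.00) on its brightest probe. The other probes of ITGB3, never well above background, were lower in REST. A dimmer probe of MRC2, well above background on all 12 arrays, had -0.14 (SE 0.35). Another, well above background on 9 arrays, had -0.56 (SE 0.28). CD44, the hyaluronan receptor, had a difference of -0.58 (SE 0.68), which was -0.08 with slide as a block and -0.14 without REST 5. The 9 basement membrane genes had a median of -0.02, with LAMB2 at 0.30 (SE 0.17) and LAMA4 at -0.12 (SE 0.27), or 0.01 without CONT 4 and -0.30 without CONT 6.

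**Figure D5:**
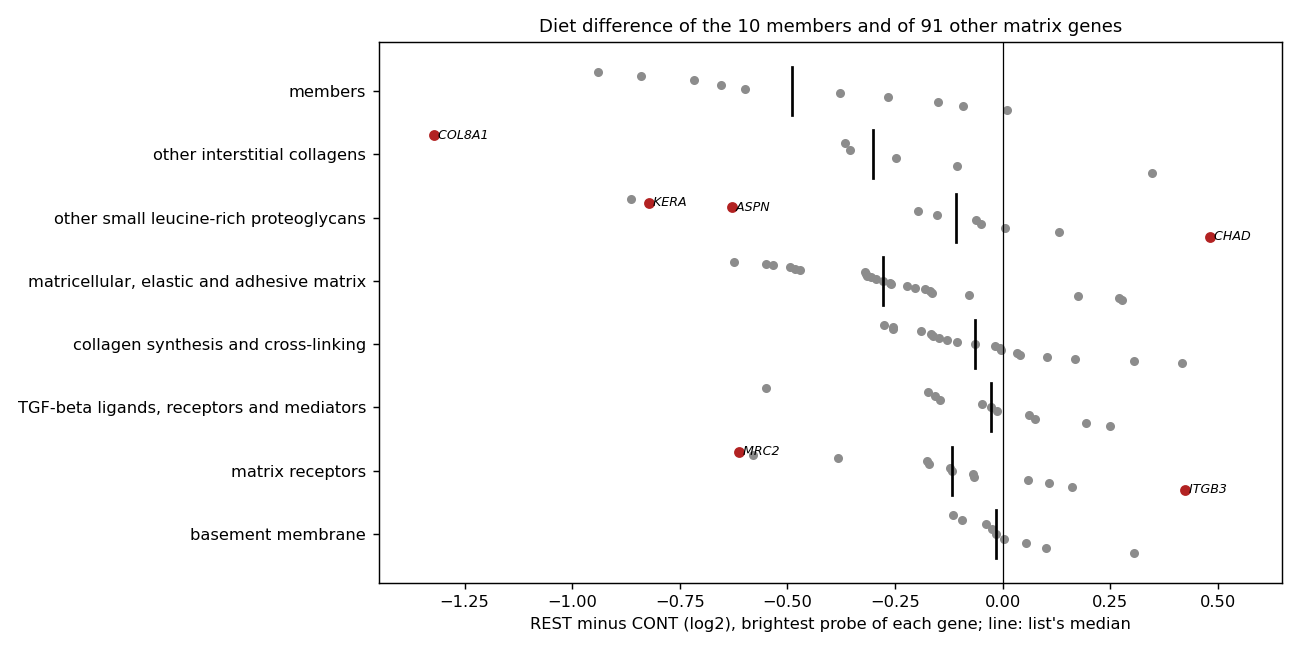
Difference between the diets (horizontal axis, REST minus CONT, log2) of the brightest probe of the 10 members and of 91 other matrix genes in 7 lists. Each point is 1 gene, the vertical line is the median of a list, and the named darker points have an unadjusted limma p under 0.05. The medians run from -0.30 for the other interstitial collagens to -0.02 for the basement membrane, and the members, chosen with this contrast known, have a median of -0.49.

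Markers of the cells that a biopsy can hold were compared as list means, in which each gene was set relative to its own mean over the 12 cows. The fibroblast list had all 9 genes on the array, with TCF21 at background throughout, and a mean of -0.35 to 0.28 in CONT and -0.30 to 0.46 in REST. In it 6 genes were higher and 3 lower in REST, with a median of 0.04. PI16, a marker of adventitial fibroblasts, had a difference of -0.67 (unadjusted p under 0.05; SE 0.30, limma adjusted p = 1.00). It was named as the only gene of the list under this p. The differences of the list ran from -0.67 to 0.67, so a marker as far from 0 went the other way. The fibroblast mean had a within-diet r of 0.83 with COL1A1 (permutation p = 0.0062, adjusted p over 26 relations 0.041; rho = 0.73, permutation p = 0.019, adjusted p = 0.16), and 0.65 without REST 1 and REST 3. With slide and diet both removed this r was 0.66. With LUM it had r = 0.03 (permutation p = 0.95, adjusted p = 0.99) and rho = -0.18 (permutation p = 0.60, adjusted p = 0.96). The part of the fibroblast markers in the diet differences was not tested, nor was the difference between these r values. The ranges of the smooth muscle and pericyte list (-0.77 to 0.72 in CONT, -0.31 to 0.24 in REST, 7 genes), the luminal epithelium list (-0.29 to 0.28 and -0.20 to 0.46, 8 genes), the adipocyte list (-1.39 to 0.81 and -1.11 to 0.56, 5 genes) and the leukocyte list (-0.43 to 0.39 and -0.57 to 0.64, 6 genes) overlapped between the diets.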

How the data were processed

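RNA of mammary biopsies was hybridized by the authors to one-color bovine Agilent arrays (100 ng of RNA from 50 mg of tissue) and scanned with Feature Extraction 11.0.1.1. The deposited values are spot intensities after the scanner software's own background correction. The deposited value table was identical to these intensities and not further normalized. Each array's log2 intensity had its 75th percentile subtracted, outlier spots were masked, and replicate spots were averaged to 43653 probes. Probes were named through their RefSeq accession (26832 probes, 12639 genes). Diets were compared with limma 3.58.1 in R 4.3.3, with Benjamini-Hochberg adjustment over all probes, and the fit was tested on simulated data. The moderated test with Westfall-Young correction of the study's methods was not run.

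The 10 members and all gene lists were chosen with earlier results of these data known. Of the genes outside the members, those with an unadjusted p under 0.05 and the 2 largest differences of each list were named, among probes well above background on at least 6 arrays, with the 8 closest to LUM and to the members' mean. OMD, OGN, ECM2 and EPYC were named after their values were seen. Within-diet correlations, repeated with slide removed as an alternative chosen after seeing the data, used Python 3.11.15 with numpy 2.4.6. The number of arrays limits the precision. Alternatives were quantile normalization, normexp (offset 50), the deposited value table, a filter on dim probes, outlier spots kept, an intensity trend, a block for slide, averaging a gene's probes, and leaving out each cow.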

Additional observations from a re-analysis of the deposited data

Results flagged for a closer look

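In 64 groups of 6 cows, a cow was sought whose gap to its nearest neighbour, as a share of the group's range, exceeded Dixon's critical value, which chance gives in about 1 group of 20. Such cows were found in 6 groups, and none was a value of the 10 members. The mean of the endothelial markers was -1.76 in CONT 6, against -0.05 to 0.20 in the other CONT cows. ENG, also of endothelium, was 1.17 in CONT 6, against 2.68 to 3.26. LOXL3 was -0.20 in CONT 5, against -2.05 to -1.38, and -0.35 in REST 3, against -1.30 to -1.17. MRC2 was 2.48 in CONT 5, against 1.15 to 1.51 in the other CONT cows, and without CONT 5 its diet difference was -0.43. LAMA4 was 2.15 in REST 2, against 1.04 to 1.41 in the other REST cows.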

How the results depend on the processing

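No paired analysis was possible because the labels give each cow as biological replicate 1 and the numbers 1 to 6 used here are the order in the series, which ties no CONT cow to a REST cow. The median difference of the 10 members (-0.49) was -0.28 with slide as a block, -0.36 with all probes of a gene averaged, -0.43 with normexp and -0.48 with quantile normalization. Leaving out each cow moved it from -0.64 (without REST 1) to -0.33 (without REST 2). It was -0.47 without both, an alternative chosen after seeing the data. The difference of LUM stayed between -1.01 (without REST 1) and -0.70 (probes averaged) in 19 settings. BGN changed sign in 2 of them and POSTN in 7, and the other members in none. No member moved by more than its SD among the REST cows. COL1A2, COL3A1, DCN and FN1 did move by more than their smaller SD among the CONT cows. DCN went from -0.38 to -0.10 with its probes averaged (CONT SD 0.15), and COL3A1 from -0.60 to -0.31 with slide as a block (CONT SD 0.25). The count of 0 probes past the adjusted p was found in every setting run, while the 1143 probes under an unadjusted p of 0.05 became 381 with normexp and 1739 without REST 6. The 6 other matrix genes with an unadjusted p under 0.05 became 2 without CONT 1, without REST 2 or without REST 4. The 66 other matrix genes lower in REST became 49 with slide as a block and 57 to 72 when each cow was left out. The median r of LUM with the members (0.22) ran from -0.13 (without REST 1) to 0.43 (without REST 3) and was 0.36 with slide as a block. Over the 7 lists of other matrix genes, leaving out each cow changed the sign of the median for collagen synthesis (0.01 without REST 2), TGF-β (0.05 without CONT 5) and basement membrane (0.08 without REST 4). The causes were not tested.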

Other observations

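The endothelial markers were the list with the most even direction among the cell markers. All 7 (PECAM1, VWF, CDH5, KDR, TEK, TIE1 and CLDN5) were higher in REST, with a median of 0.37, and none passed an adjusted p of 0.05 by limma. VWF, the clotting factor stored by endothelium, had a difference of 0.79 (SE 0.30, limma adjusted p = 1.00), with 5 of 6 REST cows above every CONT cow. CONT 6 was far below the other CONT cows for these genes, and without it the difference of VWF was 0.50 and that of the list mean 0.16 in place of 0.46.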
